A study of Homo sapiens with 2 samples.

Results

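The mitotic and G2 genes are a named set of 44 genes whose products act between the end of DNA replication and the division of the cell. Each was found through the symbols of the probe sets, older aliases included, and all 44 have a probe set of their own among the 19775 genes measured. The cells were HT-29, an established line from a human colon adenocarcinoma. The monolayer culture grew attached to treated plastic in DMEM/F-12 with 10% fetal bovine serum. The spheroid culture was started from such cells on low adhesion plates in stem cell media (DMEM/F-12 with B27, epidermal growth factors and a fibroblast growth factor), and was taken on day 5. An antibiotic-antimycotic was present in both media. Medium, serum and growth form differed together, so their parts cannot be told apart. Each condition has 1 Affymetrix U133 Plus 2.0 array, for which the authors deposited MAS5 signals, intensities on a linear scale. With 1 array per condition no test was possible, no difference has a replicate check, and every difference given here compares these arrays only.

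Both arrays had a trimmed mean signal of 500.1. The floor used here is 62.7, the median of all signals, and 13183 genes were above it on 1 or both arrays. The labelled cell type was set against 11 markers of colon epithelium. EPCAM, CDH1, KRT8, KRT18 and KRT20 were above the floor on both arrays, but CDX1, CDH17 and LGALS4 were under it on both, and CDX2, VIL1 and CEACAM5 passed it on 1 array only, with no signal over 105.5. The summed signal of the list was 64255 in monolayer and 58247 in spheroids. Of the defining markers of other cell types, COL3A1, DCN, LUM and PDGFRB of fibroblasts, PTPRC, CD3E and CD14 of leukocytes and VWF, CDH5 and KDR of endothelium were under the floor on both arrays, and COL1A2 and THY1 of fibroblasts passed it on 1 array, at 64.9 in monolayer and 101.9 in spheroids. The fibroblast list summed to 1587 and 2276, nearly all of it from the collagen gene COL1A1, at 1370 and 1972. The leukocyte list summed to 207.4 and 155.8 and the endothelial list to 241.6 and 142.8, where only ITGAM and PECAM1 were above the floor. The part of these markers in the results was not tested.

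Cells that leave S phase build up cyclin B and its kinase CDK1, whose activation by CDC25 phosphatases starts mitosis. Spindle, kinetochore and checkpoint proteins then align the chromosomes, and the anaphase-promoting complex (APC/C) with CDC20 marks securin and cyclin B for destruction so that the chromosomes part. Most of these genes are transcribed in G2 and mitosis under the MuvB complex with B-MYB and FOXM1, and are kept silent by the related DREAM complex in resting cells. In tumor tissue their mRNA is widely read as a mark of proliferation.

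The mitotic and G2 genes were measured on both arrays without exception, and none of the 44 differed by 2-fold between HT-29 spheroids and monolayer. Over all measured genes 2.53% were at least 2-fold higher in spheroids and 3.08% at least 2-fold lower. At the smaller threshold of 1.5-fold, 2 members were higher, CDK1 and CENPE, against 9.53% of all genes, and 2 were lower, CDC25C and PLK1, against 11.6% of all genes. The log2 differences, spheroid minus monolayer, ran from -0.92 for CDC25C to 0.63 for CDK1. Their median was -0.10, against -0.05 over all genes, and their interquartile range was 0.45, against 0.58. Among the 9008 genes above the floor on both arrays whose mean log2 signal lay within the range of the members, a comparison chosen after the values were seen, 3.73% differed by 2-fold in either direction, and the interquartile range was 0.55. The direction of small differences depended on how the arrays were scaled. Of the 44 members 28 were under 0 as deposited, where 54.8% of all genes were, but only 12 after scaling on the hybridisation spike-ins (control RNAs added in equal amounts before hybridisation), where 32.8% of all genes were. That scaling moves genes well above the floor upward alike, and genes near it by less. The median of all genes went from -0.05 to 0.18, and the median of the members from -0.10 to 0.15. Relative to the median of all genes, the median of the members was -0.04 as deposited and -0.03 on the spike-in scale. Across 4 scalings, as deposited, to the median, by quantiles and to the spike-ins, 15 members were higher in spheroids throughout, 12 lower throughout, and for 17 the direction differed. With the other choices of probe set included, each on the deposited scale only, 14 were higher and 11 lower throughout. Some were barely so, as BUB3 at 0.01 and KIF14 at 0.02 with median scaling. Probe set choices and scalings were not combined. MKI67 is among the 11, but its other probe sets were at 0.06, 0.35 and 0.42 on the spike-in scale. The share of all genes that kept their direction was not counted. In RNA of whole cultures the share of cells in G2 and mitosis and the RNA of a gene per such cell cannot be told apart, for members that were higher or lower alike.

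**Figure D1:**
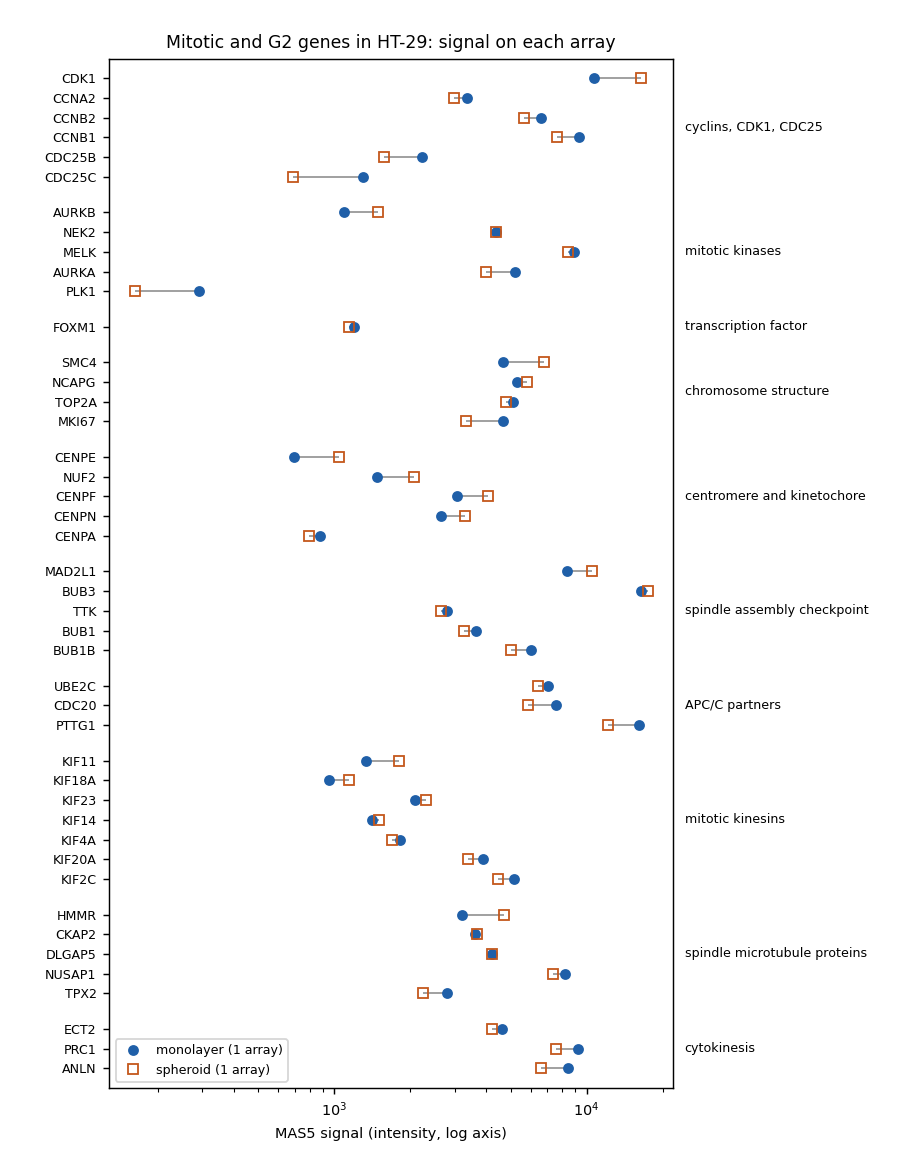
MAS5 signal of the 44 mitotic and G2 genes on the monolayer array (filled blue circles) and the spheroid array (open squares), 1 array per condition, on a log axis, grouped by role. Levels of different genes come from different probe sets and are not to be compared. The longest bars belong to CDC25C and PLK1, lower in spheroids, and CDK1 and CENPE, higher in spheroids under each of 4 scalings.

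**Figure D2:**
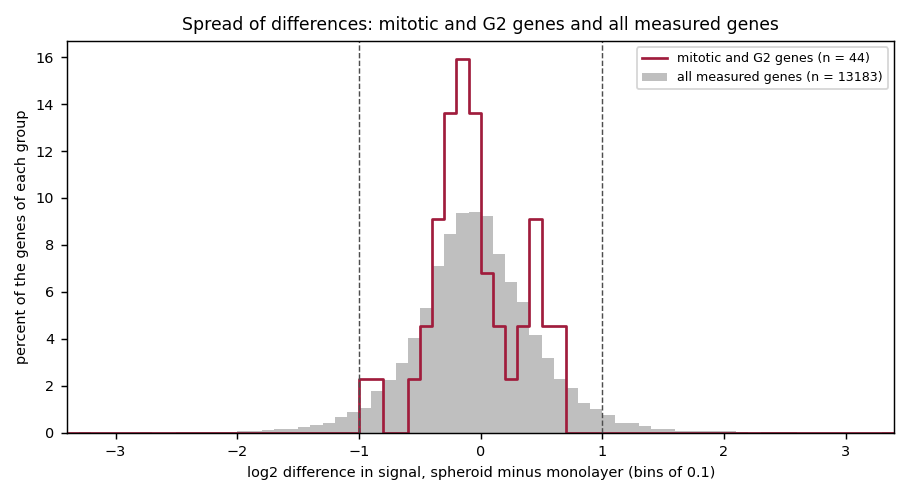
Distribution of log2 differences between the spheroid and the monolayer array for the 44 mitotic and G2 genes (red outline) and all 13183 measured genes (grey), as percent of each group in bins of 0.1. All 44 lie between the dashed lines of 2-fold, where 5.61% of all genes lie outside. Scaling to spike-ins moves the 44 to the right by 0.25, and genes near the floor by less.

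The promoters of these genes carry letters that are known to mark the class, and they are shown here because they are what most of the members share apart from function. RefSeq promoters on GRCh38.p14, from 250 bases before to 50 bases after the start of transcription, were matched for 38 of the 44 members. The core of the cell cycle genes homology region (CHR), TTTGAA, to which MuvB complexes bind, was found on either strand in 26 of the 38, or 68.4%, against 18.2% of 27305 genes with a promoter. The box CCAAT, to which NF-Y binds, was found in 29, or 76.3%, against 39.7%. Both occurred in 21, or 55.3%, against 7.26%. E2F sites of the forms TTTCCCGC, TTTGGCGC, TTTGCCGC and TTTCGCGC were found in 3, or 7.89%, against 3.99%. A gene with several starts was counted where any start held the letters, and a match is a description of the sequence and not a bound site. The 120 bases before the start are printed for 7 members, 5′ to 3′ on the strand of the gene, with CHR cores (TTTGAA or, on the other strand, TTCAAA) and CCAAT boxes (CCAAT or ATTGG) in capitals. By their brightest probe sets CDC25C, PLK1, CDC20 and MKI67 were lower in spheroids under each scaling, and CDK1 and HMMR were higher. CCNB1 was lower by its brightest probe set and lacks the CHR letters in this window. Probe sets of these genes that went the other way are given below.
CDC25C: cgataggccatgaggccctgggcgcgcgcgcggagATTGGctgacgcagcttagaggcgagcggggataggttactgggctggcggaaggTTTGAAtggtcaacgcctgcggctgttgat
PLK1: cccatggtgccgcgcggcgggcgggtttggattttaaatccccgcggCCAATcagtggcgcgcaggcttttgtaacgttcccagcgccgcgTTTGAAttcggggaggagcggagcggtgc
CDC20: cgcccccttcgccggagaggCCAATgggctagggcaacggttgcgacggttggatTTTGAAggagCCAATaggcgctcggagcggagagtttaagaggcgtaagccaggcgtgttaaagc
MKI67: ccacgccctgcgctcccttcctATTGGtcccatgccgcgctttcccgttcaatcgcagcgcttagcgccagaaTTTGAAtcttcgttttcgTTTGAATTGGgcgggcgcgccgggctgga
CDK1: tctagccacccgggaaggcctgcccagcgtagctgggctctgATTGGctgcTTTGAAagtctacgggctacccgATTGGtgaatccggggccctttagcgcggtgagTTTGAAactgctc
HMMR: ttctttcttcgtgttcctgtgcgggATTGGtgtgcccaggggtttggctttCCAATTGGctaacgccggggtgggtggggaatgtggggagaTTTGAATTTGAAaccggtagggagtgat
CCNB1: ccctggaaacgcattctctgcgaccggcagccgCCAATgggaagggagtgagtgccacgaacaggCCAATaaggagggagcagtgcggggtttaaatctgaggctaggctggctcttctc
The windows lie at chr5:138331805-138331924 on the minus strand for CDC25C, chr16:23678769-23678888 (plus) for PLK1, chr1:43358861-43358980 (plus) for CDC20, chr10:128126424-128126543 (minus) for MKI67, chr10:60778358-60778477 (plus) for CDK1, chr5:163460512-163460631 (plus) for HMMR and chr5:69167030-69167149 (plus) for CCNB1. CDC25C has 4 starts in the table and CDK1 has 2, and the start whose window holds most matches is shown. In HMMR a CCAAT box overlaps another on the opposite strand, and in MKI67 a CHR core overlaps a CCAAT box. The same letters stand before genes that were lower and genes that were higher. Over the 26 members with a CHR core the log2 differences ran from -0.92 to 0.63, with 14 under 0 and a median of -0.05. Over the 12 without it 9 were under 0 with a median of -0.17, and of all genes 54.8% were under 0. On the spike-in scale all these values move up by 0.25, so that signs near 0 turn.

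Among the cyclins, CDK1 and its activators, CDK1 went apart from the phosphatases CDC25B and CDC25C. CDK1, the kinase that drives entry into mitosis, went from 10671 in monolayer to 16461 in spheroids, 1.54-fold higher. Its other bright probe sets were at log2 differences of 0.55 and 0.65, and only the dimmest, with signals of 129.8 and 117.7, was under 0. CDC25C, the phosphatase that removes the inhibitory phosphates from CDK1, went from 1299 to 688.4, 1.89-fold lower. A second CDC25C probe set was dimmer, at 168.4 and 201.7, and lay the other way at 0.26, so that the median of its probe sets was -0.33. CDC25B, which activates CDK1 at the centrosome, went from 2226 to 1571, a log2 difference of -0.50. The cyclins that CDK1 binds were each lower as deposited. CCNB1 went from 9307 to 7616 (-0.29), CCNB2 from 6586 to 5664 (-0.22) and CCNA2 from 3368 to 2972 (-0.18). By its brightest probe set CCNB1 was lower under all 4 scalings, but at -0.04 relative to the spike-ins. There CCNB2 and the brightest probe set of CCNA2 turned upward. The other bright CCNB1 probe set went from 3427 to 3327 (-0.04) and was at 0.20 on the spike-in scale. The other bright CCNA2 probe set went from 2367 to 1642 (-0.53) and stayed under 0 there, at -0.28. The median over the 6 members of this group was -0.25 as deposited, 1 above 0 and 5 under 0. It was -0.01 on the spike-in scale, with 3 on either side. Over all genes 54.8% and 32.8% were under 0 on these scales.

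The kinases of mitosis did not go together either. PLK1, a kinase of mitotic entry, spindle and cytokinesis, went from 292.3 in monolayer to 162.6 in spheroids, 1.80-fold lower, and has a single probe set. Its signals were under 386.0, the 75th percentile of all signals, and with the floor set there it has no value. AURKA, the kinase of the spindle poles, went from 5192 to 3983 (-0.38), with both probe sets above the floor lower. AURKB, the kinase of the chromosomal passenger complex, went the other way, from 1098 to 1488 (0.44), by the only probe set measured on both. NEK2, which separates the centrosomes, was at 4374 and 4366, with a second probe set at -0.29, and MELK at 8925 and 8434 (-0.08). AURKA and PLK1 were lower and AURKB higher under each scaling. FOXM1, the transcription factor of this program, had signals of 1195 and 1143, a log2 difference of -0.06 that became 0.18 on the spike-in scale.

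Genes of the centromere and kinetochore, the plates on which microtubules pull, were mostly higher in spheroids. They were so for 4 of 5 under 3 of the scalings and 5 of 5 relative to the spike-ins. Over all genes 54.8% were under 0 as deposited and 32.8% relative to the spike-ins. CENPE, a kinesin that carries chromosomes to the spindle equator, went from 692.5 to 1050 and was 1.52-fold higher. NUF2, a subunit of the microtubule-binding NDC80 complex, went from 1479 to 2071 (0.49). CENPF, which accumulates in G2, went from 3079 to 4065 (0.40), with a second probe set at 0.57, and CENPN, which reads the CENPA nucleosome, from 2647 to 3289 (0.31), with its probe sets from 0.13 to 0.66. CENPA, the centromeric histone, was at 876.0 and 793.3 (-0.14) by an _x_at probe set, whose probes may bind other transcripts, and was above 0 on the spike-in scale. The median of these 5 genes lay 0.46 above that of all genes as deposited and from 0.45 to 0.47 above it under the other scalings.

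Members of the spindle assembly checkpoint, which holds anaphase until every kinetochore is attached, had small differences by their brightest probe sets. MAD2L1, the inhibitor of CDC20, went from 8352 to 10498 (0.33). Of its 3 probe sets 2 were higher, the other bright one at 0.62, and the dimmest was at -0.14. BUB3, a scaffold of the checkpoint, was at 16489 and 17472 (0.08), and each of the 5 BUB3 probe sets measured on both arrays was higher, up to 0.76. BUB1B, the gene of BUBR1, went from 6022 to 5020 (-0.26). BUB1 went from 3658 to 3281 (-0.16) and TTK, the kinase MPS1, from 2807 to 2640 (-0.09), and both turned upward on the spike-in scale.
The genes around the APC/C were lower as deposited, 3 of 3, and 2 of 3 relative to the spike-ins, where 54.8% and 32.8% of all genes were. PTTG1, the securin that holds separase inactive, went from 16177 to 12204 (-0.41), by an _x_at probe set. CDC20, the APC/C activator whose promoter is printed above, went from 7584 to 5867 (-0.37). UBE2C, the ubiquitin-conjugating enzyme of the APC/C, was at 7028 and 6432 (-0.13), and turned upward on the spike-in scale.

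The 7 mitotic kinesins, motors of the spindle and midzone, lay from -0.22 to 0.43. KIF11, which pushes the spindle poles apart, went from 1339 to 1806 (0.43) and KIF18A, which damps chromosome movement, from 950.7 to 1147 (0.27). KIF23, a motor of the midzone, was at 2084 and 2319 (0.15), and KIF14, a cytokinesis motor, at 1414 and 1508 (0.09). These 4 were higher under each scaling by their brightest probe sets. A second KIF14 probe set was nearly level, at 754.5 and 755.2 (0.001). KIF2C, the microtubule depolymerase MCAK, went from 5164 to 4439 (-0.22), KIF20A, a midzone motor, from 3902 to 3380 (-0.21) and KIF4A, a chromosome-bound motor, from 1830 to 1701 (-0.11), and these 3 turned upward on the spike-in scale. The other bright KIF2C probe set went from 1560 to 1091 (-0.52) and stayed lower there, at -0.27.
Among the spindle microtubule proteins HMMR stood apart. HMMR went from 3202 to 4704, 1.47-fold higher, and its other probe set was at 0.82. TPX2, the activator of AURKA, went from 2790 to 2251 (-0.31), and NUSAP1, which bundles microtubules, from 8230 to 7352 (-0.16). CKAP2, which stabilises microtubules, was at 3606 and 3692 (0.03), and DLGAP5, a spindle assembly factor, at 4233 and 4229. HMMR was higher and TPX2 lower under all 4 scalings, whereas NUSAP1 turned upward on the spike-in scale.

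The members grouped under cytokinesis were lower by the probe sets that stand for them. The midzone and cytokinesis motors KIF14 (0.09), KIF23 (0.15) and KIF20A (-0.21) were counted with the kinesins instead. The group was lower for 3 of 3 as deposited and 2 of 3 on the spike-in scale. Of all genes 54.8% and 32.8% were under 0 on these scales. ANLN, anillin of the contractile ring, went from 8432 to 6597 (-0.35), but its other probe set, with signals of 2104 and 2333, was at 0.15. PRC1, which bundles the midzone microtubules, went from 9280 to 7567 (-0.29). ECT2, the exchange factor that activates RHOA at the equator, went from 4639 to 4215 (-0.14), which turned upward relative to the spike-ins, while a dimmer probe set at -0.37 stayed lower.
The genes of chromosome structure were split. SMC4, the ATPase subunit of condensin, went from 4660 to 6783, 1.46-fold higher. Its 3 probe sets ranged from 0.20 to 1.95, and the highest is a dim _x_at probe set that went from 187.5 to 724.9, the only one to pass 2-fold among the 75 of the members that both arrays measured. NCAPG, another condensin subunit, was at 5309 and 5786 (0.12), with a second probe set at -0.22. TOP2A, the topoisomerase that untangles sister chromatids, was at 5116 and 4799 (-0.09), with another probe set at 0.15. MKI67, the gene of the proliferation antigen Ki-67, went from 4673 to 3342 by its brightest probe set, 1.40-fold lower. Its 4 probe sets were at -0.48, -0.19, 0.10 and 0.17, in the order of falling signal, so that their median was -0.04. On the spike-in scale they were at -0.24, 0.06, 0.35 and 0.42 in the same order.

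**Figure D3:**
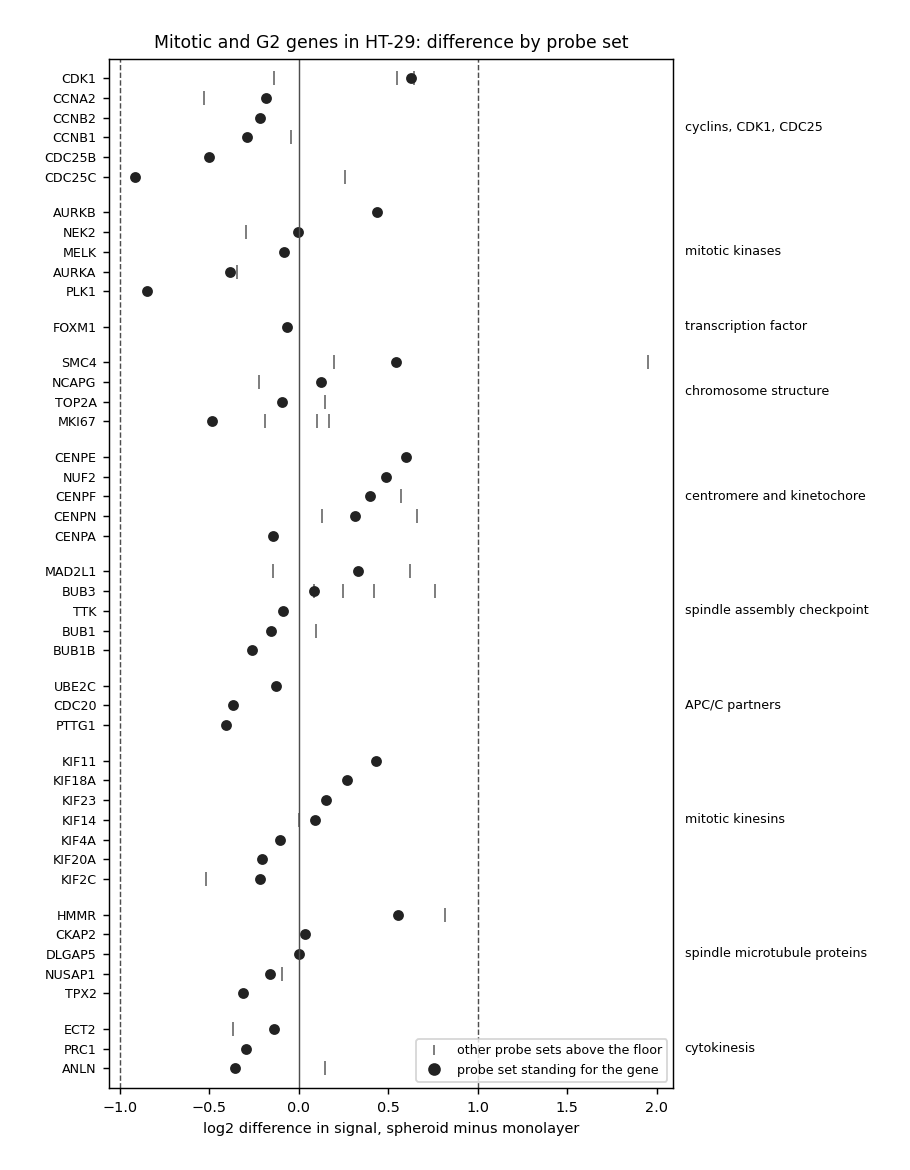
Log2 difference in signal, spheroid minus monolayer, of the 44 mitotic and G2 genes by role (dots, by the gene's brightest probe set), with further probe sets measured on both arrays (grey ticks) and dashed lines at 2-fold. No dot passes a dashed line and only 1 tick does, of SMC4 at 1.95; on the spike-in scale every point moves right by 0.25.

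Probe sets of the same gene differed about as much as the genes did. The members have 91 probe sets, of which 75 exceeded the floor on each array, 36 of them higher in spheroids and 39 lower as deposited. For 21 members several probe sets were above the floor, and for 8 of these the probe sets lay on both sides of 0. Among the 18 members with several bright probe sets, at 500 or more on both arrays, 4 had bright probe sets on both sides, namely ANLN, MKI67, NCAPG and TOP2A. Within a member, probe sets had an SD of 0.38 on the log2 scale (31 degrees of freedom), a spread within arrays that holds no culture variation. This SD is raised by the dim SMC4 probe set at 1.95. Of the 44 members 30 lay within the SD of 0, and the share of all genes that did was not counted. Another 7 probe sets are assigned to a member together with another gene and were not used.

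Other mitotic genes, taken from 5 lists outside the 44, were set beside them. Of 108 that were measured 1 was at least 2-fold higher in spheroids and 0 were lower, again against 2.53% and 3.08% of all genes. That gene was CENPQ, a kinetochore subunit, which went from 291.6 to 609.7, 2.09-fold higher, and fell short of 2-fold with median scaling. On the spike-in scale 4 of the 108 were at least 2-fold higher, where 5.29% of all genes were. The median log2 difference of the 108 was 0.02, or 0.07 above that of all genes.
The other kinetochore and centromere genes had 11 of 31 measured members under 0 as deposited and 6 relative to the spike-ins, where 54.8% and 32.8% of all genes were. Their median lay 0.18 above that of all genes as deposited and 0.16 above it on the spike-in scale. CENPI and CENPK, which belong to the same inner kinetochore network as CENPQ, were at 0.79, with another CENPI probe set at -0.10, and 0.66, while CENPH of that network was 1.88-fold lower by an _x_at probe set. NDC80, SPC24 and SPC25, which share the NDC80 complex with NUF2, went the other way from it as deposited, at -0.21, -0.51 and -0.43. Another list holds APC/C subunits with the activator FZR1, the conjugating enzyme UBE2S and the inhibitor FBXO5. It had 10 of 16 under 0 as deposited and 7 relative to the spike-ins, beside the same 54.8% and 32.8% of all genes. Its median was -0.23, 0.17 under that of all genes, and became 0.29 when the most different probe set stood for each gene. ANAPC11, the RING subunit, went from 14048 to 7765 (-0.86), FZR1 was at -0.66 with its probe sets from -0.84 to 1.27, ANAPC15 was at -0.47, and FBXO5, also called EMI1, was at 0.53. In the list of passenger complex, spindle and cytokinesis genes the median was -0.04 over 25, with HAUS1 and ARHGAP11A at 0.82 and GTSE1 and TACC3, a partner of AURKA, at -0.86 and -0.73. The GTSE1 value is from an _x_at probe set, and its 4 measured probe sets ran from -0.86 to 0.41. Condensin and cohesin genes had a median of 0.02 over 18. NCAPD2, a condensin subunit like NCAPG, was at -0.80, SMC2, the partner of SMC4, at 0.58 with another probe set at -0.04, and the cohesin genes SGO1 and STAG2 at 0.50 and 0.49. The other G2/M control genes had a median of 0.01 over 18, with CKS2, the small CDK partner, at -0.79, CCNF at -0.44, and ARPP19 and its kinase MASTL at 0.61 and 0.51. The medians of these last 3 lists change sign with the scaling and lay from 0.01 to 0.14 above that of all genes under each of the 4.

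Regulators of the program and genes of the phase before it were compared last. Of 20 MuvB, DREAM and E2F genes measured 1 was at least 2-fold higher, beside 2.53% of all genes, namely LIN9, a MuvB subunit, which went from 92.3 to 230.6 and was 2.50-fold higher by an _x_at probe set near the floor. LIN54, the subunit that binds CHR letters such as those in the promoters of CDK1 and PLK1, went from 161.0 to 272.8 (0.76). RBL2, the pocket protein p130 of DREAM, went from 1585 to 899.6 (-0.82), with another probe set at 0.11, and E2F4 was at -0.96, with another at 0.03. E2F4 passed 2-fold downward with median scaling and with quantile normalization. Of 31 S phase genes measured 1 was at least 2-fold higher and 0 were lower, where 2.53% and 3.08% of all genes were. CCNE2, a cyclin of the G1/S boundary, went from 1230 to 3376, 2.74-fold higher, with both of its probe sets up. FEN1, CDC6 and the thymidine kinase TK1 were at 0.51, 0.45 and -0.47, with another TK1 probe set at 0.26. The median of the S phase genes lay 0.12 above that of all genes as deposited and from 0.12 to 0.14 above it under the other scalings, where the mitotic and G2 genes lay from 0.03 to 0.05 under it. The difference between these lists was not tested.

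**Figure D4:**
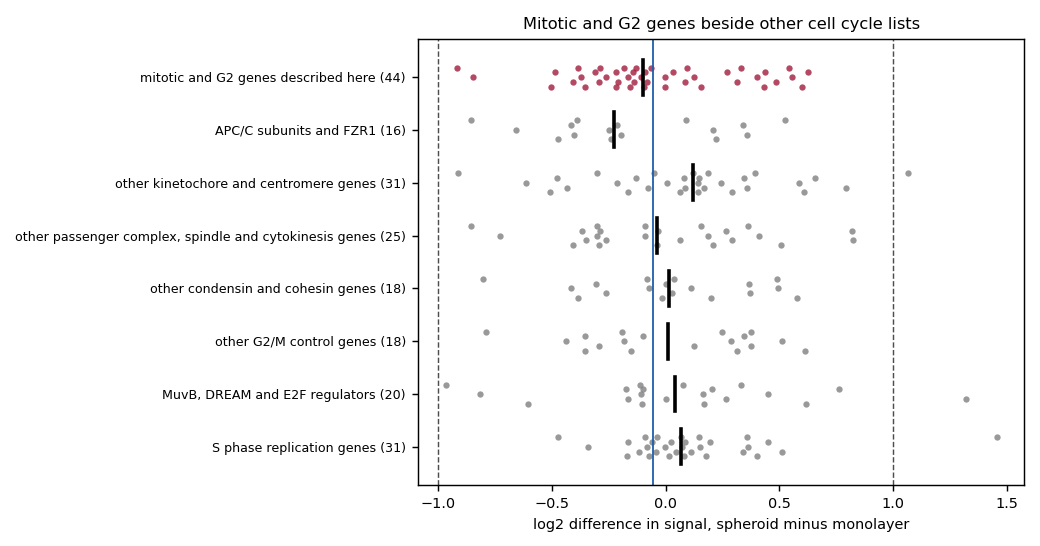
Log2 difference in signal, spheroid minus monolayer, of the 44 mitotic and G2 genes (red) and of the measured genes of 7 other cell cycle lists (grey), 1 array per condition, with list medians (black bars), the median of all genes at -0.05 (blue line) and 2-fold (dashed lines). CENPQ, LIN9 and CCNE2 are the dots beyond 2-fold. On the spike-in scale points move right by 0.25, or by less near the floor, and signs near 0 turn.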

How the data were processed

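Total RNA of each culture was labelled with the 3′ IVT kit and hybridised to a U133 Plus 2.0 array. The authors made CHP files by the mas5 method with Affymetrix Expression Console, and what was deposited are signal intensities, linear and scaled per array. Duplicates are mentioned in the methods, but only 1 array per condition was analysed here, which limits the precision. Of 54675 probe sets, 41097 belong to 1 gene in the platform annotation, 1801 to several and 11777 are unnamed here. Of those of 1 gene, 41043 were matched to current symbols through gene numbers of RefSeq on GRCh38.p14.

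A gene was represented by its brightest probe set, that of the highest mean of log2 signals. Signals under the 50th percentile of all signals (62.7) were raised to it before log2 was taken, with pandas 2.3.3 and numpy 2.4.6 under Python 3.11.15, and figures were drawn in matplotlib 3.10.9. The 2-fold threshold follows the methods. The spike-in scale adds 0.25 to each log2 difference of signals well above the floor. The spheroid array read lower for 18 of 18 probe sets of the hybridisation spike-ins, by 0.25 on average. The floor was set anew on that scale, so genes near it moved by less. Control probe sets at the 3′ end over the 5′ end gave GAPDH ratios of 1.05 in monolayer and 1.07 in spheroids, and ACTB ratios of 4.07 and 3.65. The computation was tested on simulated data.

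Members, lists and alternatives were chosen with earlier results of these data known. Any member could be named, and of each other list up to 4 genes with the largest difference among those measured on both arrays. NDC80, SPC24 and SPC25 were named in addition. Alternatives were median, quantile and spike-in scaling, omission of the floor or its rise to the 75th percentile (386.0), a pseudocount of 15.9 (the 25th percentile), other choices of probe set, and thresholds of 1.5-fold and 3-fold. A planned look at protein sequences was not run.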

Additional observations from a re-analysis of the deposited data

How the results depend on the processing

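No member was at least 2-fold lower under any of the 9 alternative scalings, floors, pseudocounts and probe set choices, and none was at least 2-fold higher under 8 of them. When the most different probe set stood for each gene 1 member was, SMC4 at 1.95. A threshold of 1.5-fold gave 2 members higher and 2 lower, and 3-fold gave 0 in each direction. Members under 0 numbered 12 relative to the hybridisation spike-ins. They numbered 17 of 31 with the brightest probe set not named _s_at or _x_at, since 13 members have no other probe set there above the floor, and from 26 to 29 in the other alternatives. The median of the members ran from -0.18 with median scaling to 0.15 on the spike-in scale, and relative to all genes from -0.08 to 0.02. Of 382 single-member values under the alternatives 6 moved by more than 0.38, the SD between probe sets of a member. All 6 of them came with another choice of probe set. Scaling to the median or to the spike-ins shifts every member by a constant under 0.38, and the other floors leave measured members unchanged. Values under these alternatives could not pass the cut, so their low count is no sign of stability. Between the 4 scalings the direction of 17 members differed. The median of the APC/C list became 0.29 with the most different probe set, and the other 62 list medians stayed within 0.38 of their value. Scaling to the median or to the spike-ins also shifts list medians by less than this cut. The spread between cultures is unknown, so the sizes of these shifts have no replicate error to be read against. No paired analysis was possible because each condition has 1 array and no test was run.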
